A study of Mus musculus with 12 samples.

Results

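The 56 genes described here encode secreted and membrane-bound axon guidance cues (ephrins, semaphorins, netrins and Slits) and their receptors (Eph kinases, plexins, neuropilins, DCC, the UNC5 proteins and the Robo proteins). They were chosen by name, as the rows whose Ensembl mouse gene identifier belongs to a listed guidance gene, and make up 56 of the 54532 genes in the count tables. Of these, 29 are ligands (8 ephrins, 16 semaphorins, 2 netrins and 3 Slits) and 27 are receptors (9 Eph receptors, 8 plexins, 2 neuropilins, 5 netrin receptors and 3 Robo receptors). RNA-Seq was done on brainstem progenitors of Nestin TVA, p53 floxed pups (C57BL/6, postnatal day 3 to 5 by the labels, day 3 in the methods), grown as neurospheres without serum in EGF and FGF2. RCAS retroviral vectors infect only cells that carry the TVA receptor, which the Nestin promoter drives here in progenitors. All 12 cultures received human *ACVR1*, a type I BMP receptor, as the WT form (3 libraries, here WT), the R206H form (3, R206H), the WT form with histone H3.1K27M (3, WT/H3.1K27M) or the R206H form with H3.1K27M (3, R206H/H3.1K27M). Libraries without a vector, with an empty vector or with unmutated H3.1 are not among the 12, so H3.1K27M and the added histone vector cannot be told apart. A Cre vector is not listed for these cultures. The methods count neurosphere lines of independent litters as the samples of the culture assays but give no number for RNA-Seq, and the labels do not say whether the 3 samples of a group were such lines, so p-values may measure only the spread between these samples.

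Guidance cues steer growing axons and migrating cells by binding receptors that reorganise the cytoskeleton. Ephrins sit on the surface of one cell and Eph kinases on the next, and signal in both directions, with A-type ephrins anchored by lipid and B-type ephrins spanning the membrane. Class 3 semaphorins are secreted and act through a neuropilin that holds the ligand and a plexin that signals, whereas most membrane-bound semaphorins bind plexins directly. Netrin-1 attracts through DCC and repels when UNC5 receptors take part, and Slits repel cells that carry Robo receptors. In neural and oligodendrocyte progenitors and in gliomas these systems are known for their part in migration, positioning and invasion.

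Values are CPM, the reads of a gene scaled to a common library total after TMM normalization over the 12 libraries, listed for replicates 1, 2 and 3 in order, and fold changes are log2 values of edgeR's quasi-likelihood fit with its SE. A gene was called where the Benjamini-Hochberg adjusted p over all genes tested was under 0.05, and "rose" or "fell" refers to calls. Levels of different genes are compared only as CPM per kilobase of exon. With 3 samples against 3, an exact permutation test of a single gene cannot go below 0.1, so the calls rest on the variance that edgeR shares between genes. In such bulk RNA, fewer cells of a type and less RNA per cell cannot be told apart.

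The libraries held 19315020 to 26456257 counted reads, 0.29 to 0.341% of them on guidance genes. WT replicate 1 stood apart from its group. Its log2 CPM correlated at r = 0.976 and 0.960 with the other WT libraries, which correlated at 0.993 with each other, and at 0.990 to 0.994 with the 3 R206H libraries, whereas libraries within the other groups correlated at 0.996 or more. In that library 25 of the 56 guidance genes lay above both other WT values and 24 below both, so called fold changes with H3.1K27M in ACVR1 WT cells and counts of calls that use the WT group are given with and without it. Mouse *Acvr1* was at 46.4 to 53.5 CPM in WT, 81.9 to 113.6 in R206H, 162 to 364 in WT/H3.1K27M and 561 to 1057 in R206H/H3.1K27M, and the share that came from the human vector was not tested. *Id1*, a BMP target, was at 11.9 to 21.9, 32.4 to 40.3, 12.4 to 13.8 and 96.3 to 117.6 CPM in the same order. R206H and WT cultures therefore differed in *Acvr1* reads as well as in the allele, above all with H3.1K27M, and the effects of both cannot be told apart. The H3.1K27M groups also had more *Acvr1* reads than their counterparts without it. Effects of H3.1K27M and of the difference in *Acvr1* reads thus cannot be told apart either, also in the interaction. *Trp53* was at 76.6 to 126.7 CPM in all libraries. Neural progenitor markers summed to 5993 to 7853 CPM in every library, mostly from *Fabp7*, *Vim* and *Slc1a3*, and single markers moved. *Nes* was at 407 CPM in WT replicate 1 against 132 and 72.97 in the other WT libraries. *Hes5*, a Notch target, fell with H3.1K27M in both ACVR1 backgrounds, from 60.01 to 86.3 CPM without it to 6.49 to 11.4 with it. Of the 10, none rose and 3 fell with H3.1K27M in ACVR1 WT cells (30%, against 23% of all genes called), 2 rose and 4 fell in R206H cells (60%, against 56.5%), and 5 rose and 1 fell with R206H given H3.1K27M (60%, against 20.3%). The first counts were 3 and 5 without WT replicate 1 (80%, against 52.6%).

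Other cell type markers moved between groups. Summed astrocyte markers were at 3645 to 11990 CPM in WT, 6130 to 7124 in R206H, 3332 to 3442 in WT/H3.1K27M and 4292 to 4358 in R206H/H3.1K27M. Oligodendrocyte lineage markers were at 2380 to 3294, 2805 to 3008, 3589 to 4222 and 3477 to 3653 CPM in the same order, and 6 of these 8 fell with R206H in the presence of H3.1K27M (75%, against 20.3% of all genes called). Neuron markers were at 1218 to 1725, 1172 to 1440, 769 to 811 and 643 to 707 CPM, and *Map2* made up most of that sum. In R206H cells 5 of the 8 neuron markers rose with H3.1K27M and 2 fell (87.5%, against 56.5% of all genes called), *Map2* being 1 of the latter. Pericyte and fibroblast markers summed to 8.504 to 12.6, 13.4 to 15.6, 16.9 to 18.1 and 28.5 to 33.1 CPM, and microglia markers to 2.8 to 10.4, 3.501 to 5.42, 1.27 to 1.702 and 2.02 to 2.95 CPM. Endothelial markers summed to 4.87 to 15.6 CPM over all libraries. WT replicate 1 differed here too, with *Gfap*, an astrocyte gene, at 346 CPM against 1419 and 2674 in WT replicates 2 and 3, and *Dcx*, a gene of young neurons, at 10.7 against 83.4 and 119 CPM. *Cldn5*, a defining endothelial gene, was at 0 in 11 of the 12 libraries. The part of these shifts in the guidance gene results was not tested.

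The promoters of 4 receptor genes called with H3.1K27M in both ACVR1 backgrounds are shown, chosen after their values were seen and for lying outside the annotated transcripts, because histone H3 lysine 27, the residue that H3.1K27M replaces, is where Polycomb marks CpG-rich promoters in most tissues. Each run is the 250 bases before the RefSeq start of the gene on GRCm38.p6, 5′ to 3′ on the strand of the gene, with each CpG dinucleotide in capitals. *Epha2* and *Unc5b* rose with H3.1K27M in both ACVR1 backgrounds, and *Epha4* and *Robo2* fell in both.
Epha2, chr4:141300971-141301220, plus strand: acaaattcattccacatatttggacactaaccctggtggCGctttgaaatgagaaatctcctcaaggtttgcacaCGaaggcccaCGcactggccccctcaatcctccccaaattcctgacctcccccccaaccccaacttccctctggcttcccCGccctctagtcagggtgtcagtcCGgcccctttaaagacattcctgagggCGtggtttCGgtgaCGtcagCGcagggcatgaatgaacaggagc
Epha4, chr1:77515089-77515338, minus strand: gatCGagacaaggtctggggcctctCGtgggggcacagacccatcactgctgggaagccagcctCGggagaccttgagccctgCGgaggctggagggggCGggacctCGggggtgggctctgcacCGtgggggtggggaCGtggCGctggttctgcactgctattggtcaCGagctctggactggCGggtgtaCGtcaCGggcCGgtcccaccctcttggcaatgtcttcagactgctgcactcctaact
Unc5b, chr10:60831582-60831831, minus strand: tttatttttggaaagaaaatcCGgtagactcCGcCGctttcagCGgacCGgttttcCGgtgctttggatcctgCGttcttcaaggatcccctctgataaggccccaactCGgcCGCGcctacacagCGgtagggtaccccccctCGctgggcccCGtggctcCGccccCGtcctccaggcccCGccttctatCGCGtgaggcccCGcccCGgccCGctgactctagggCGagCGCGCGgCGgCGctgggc
Robo2, chr16:74411826-74412075, minus strand: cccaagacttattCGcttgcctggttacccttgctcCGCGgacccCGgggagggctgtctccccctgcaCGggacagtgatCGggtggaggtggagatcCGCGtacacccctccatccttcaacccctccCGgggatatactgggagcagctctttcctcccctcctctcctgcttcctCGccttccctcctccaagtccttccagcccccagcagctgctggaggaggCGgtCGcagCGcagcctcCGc
The *Epha2* window holds 9 CpG and 40.3% of the 32851 RefSeq mouse promoters hold at least as many, against 14 CpG (29.4%) for *Epha4*, 27 (8.56%) for *Unc5b* and 14 (29.4%) for *Robo2*. Over the 46 guidance genes found in that table the median was 17 CpG, against 6 over all promoters. The 10 that rose with H3.1K27M in both backgrounds had a median of 22.5 and the 6 that fell had a median of 15, which is a description of letters and not of a histone mark.

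Per length, the receptors were led by *Plxnb2* and *Plxnb1*, class B plexins that bind class 4 semaphorins, and the ligands by *Ntn1*, *Sema6a* and *Sema6d*. *Plxnb1* was at 46.7 ± 9.66 CPM per kb (SD, n = 3) and *Plxnb2* at 44.1 ± 12.2 in WT, which lie within each other's spread. With H3.1K27M *Plxnb2* was the first of the 56 at 61.98 ± 1.88 with ACVR1 WT and 66.7 ± 1.21 with R206H, and *Plxnb1* was at 37.8 ± 1.37 and 32.6 ± 1.67 CPM per kb. *Ntn1* was at 30.4 ± 7.59, 28.6 ± 1.45, 39.8 ± 2.58 and 32.3 ± 1.22 CPM per kb in WT, R206H, WT/H3.1K27M and R206H/H3.1K27M. At the other end, *Slit3*, *Robo3*, *Sema3e* and *Unc5d* were all under 0.1 CPM per kb in WT.

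**Figure D1:**
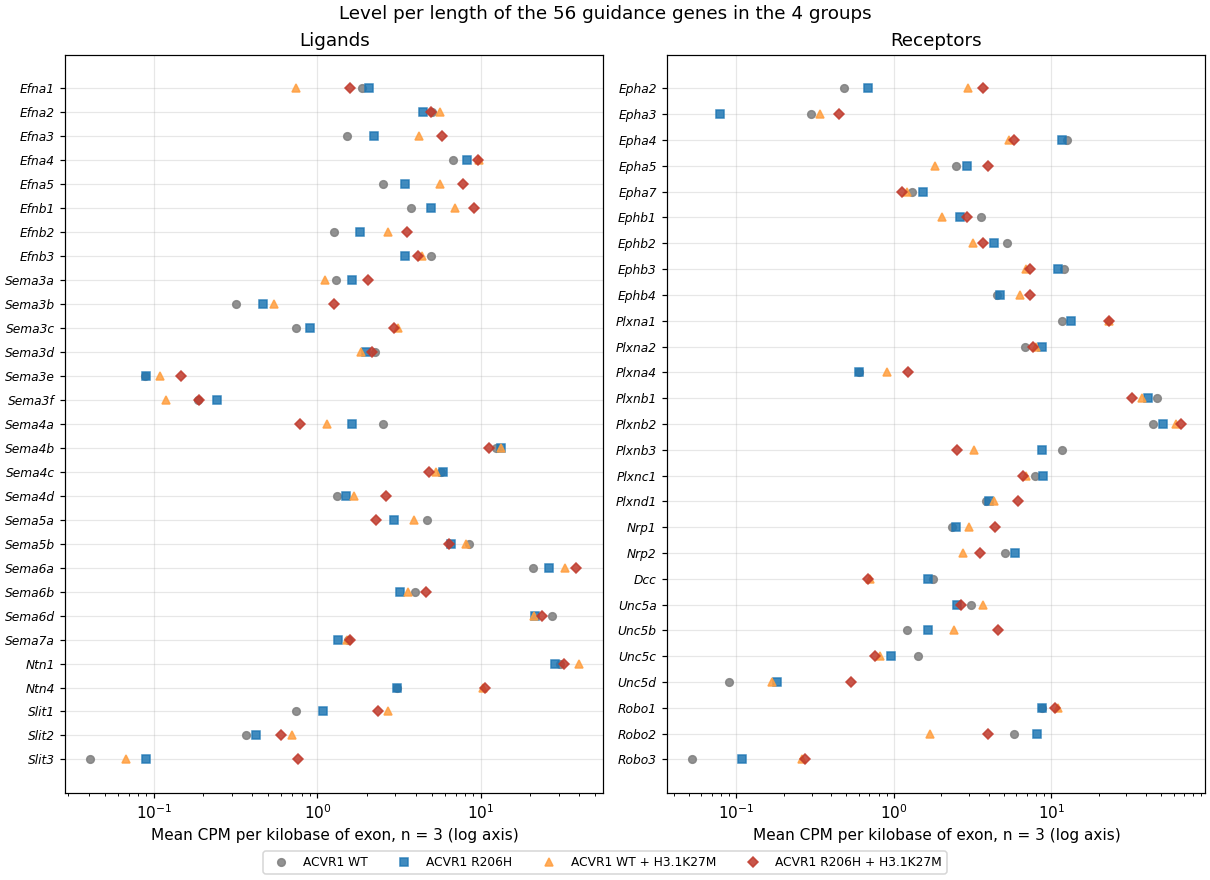
Mean CPM per kilobase of exon (log axis, n = 3 libraries per group) of the 29 ligands (left) and 27 receptors (right), with 1 marker per group. *Plxnb2*, *Plxnb1*, *Ntn1*, *Sema6a* and *Sema6d* sit farthest to the right, and the *Slit3* marker of the R206H/H3.1K27M group lies far to the right of its other 3.

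The first question of the design was what ACVR1 R206H does without H3.1K27M. No guidance gene of the 55 tested was called, as was no gene of all 15066 tested (0%). DESeq2 called 0 guidance genes and 26 genes (0.173%), and 6 guidance genes had an unadjusted p under 0.05 in edgeR against 3.54% of all genes. These were *Unc5d* (log2 fold change 1.00), *Robo2* (0.50), *Sema3b* (0.57), *Efnb1* (0.42), *Sema6a* (0.33) and *Sema5a* (-0.66). The 3 R206H values lay above all 3 WT values for 7 genes (*Efna3*, *Efna4*, *Efnb1*, *Sema3b*, *Sema6a*, *Unc5d* and *Robo2*) and below them for *Unc5a*, against 9.61% of all genes not overlapping. The median log2 fold change was 0.084 over the guidance genes and -0.013 over all genes tested.

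Without WT replicate 1, 33 of 55 guidance genes were called, 19 higher and 14 lower, where 23.1% of all genes tested were, 12.1% higher and 11% lower. The 19 were *Efna3*, *Efna4*, *Efna5*, *Efnb1*, *Efnb2*, *Epha2*, *Sema3a*, *Sema3c*, *Sema4b*, *Sema6a*, *Plxna1*, *Plxna2*, *Plxnb2*, *Nrp2*, *Unc5b*, *Unc5d*, *Slit1*, *Robo2* and *Robo3*. The 14 were *Efnb3*, *Epha3*, *Epha4*, *Ephb1*, *Ephb2*, *Ephb3*, *Sema4a*, *Sema5a*, *Sema5b*, *Sema6b*, *Sema6d*, *Plxnb1*, *Plxnb3* and *Unc5c*. Of the 8 ephrins 5 then rose and 1 fell, and of the 9 Eph receptors 1 rose and 5 fell. Among the larger log2 fold changes were *Epha3* at -2.43 (adjusted p = 0.0019), *Epha2* at 1.54 (adjusted p = 0.0043), *Slit1* at 1.42 (adjusted p = 0.008) and *Unc5d* at 1.25 (adjusted p = 0.016). In the same fit 4 of 6 astrocyte, 3 of 8 oligodendrocyte lineage and 3 of 7 neuron markers fell and none rose, and their part was not tested. Whether R206H alone changed guidance genes thus turned on 1 WT library, and both counts rest on few samples. That library was singled out in these same data, where it lay closer to the R206H libraries, so leaving it out favours larger differences. The same holds for the interaction below.

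In the presence of H3.1K27M, R206H cultures differed from WT cultures in 32 of the 56 guidance genes, 24 higher and 8 lower. Of all 15672 genes tested 20.3% were called, 11.4% higher and 8.95% lower. Ephrins (5 of 8), Eph receptors (5 of 9) and both neuropilins rose with no member falling, while semaphorins (6 up, 4 down of 16), plexins (2 up, 2 down of 8) and netrin receptors (2 up, 1 down of 5) went both ways. *Slit3* and *Robo2* rose, and *Ntn1* fell. The groups of 3 did not overlap for 29 higher and 9 lower guidance genes, against 36.8% of all genes. With all 12 libraries in a single fit, which shares the spread of the WT group, 8 of these calls remained, out of 440 genes called instead of 3185. They were *Slit3*, *Robo2*, *Sema3b*, *Unc5d*, *Unc5b*, *Epha5* and *Nrp1*, higher, and *Unc5a*, lower. These groups also differed in oligodendrocyte lineage, astrocyte and pericyte markers as given above, whose part was not tested.

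H3.1K27M was compared with its absence within each ACVR1 background. With ACVR1 WT, 22 of 55 guidance genes were called, 14 higher and 8 lower, where 23% of all 15385 genes tested were called, 12.6% higher and 10.4% lower. With ACVR1 R206H, 46 of 56 were called, 31 higher and 15 lower, where 56.5% of 15482 genes were, 29.1% higher and 27.4% lower. These comparisons share no library. Called in both were 21 guidance genes (21 of 22 and 21 of 46), 14 higher and 7 lower, and all 21 had the same sign, as did 3288 of 3294 genes overall. Without WT replicate 1, 37 were called in both and 32 of these had the same sign, as did 5376 of 5862 genes overall. Over the 55 genes tested in both, 45 had the same sign (81.8%, against 80.7% of all genes), or 44 (80%, against 74.6%) without WT replicate 1. Without WT replicate 1, 41 of 55 were called with ACVR1 WT (52.6% of all genes, 26.9% higher and 25.6% lower), 23 higher and 18 lower, and the 22 were among them. The count was 11 without WT replicate 2 (9.36% of all genes), 22 without WT replicate 3 (17.8%) and 8, 7 and 7 without WT/H3.1K27M replicates 1, 2 and 3 (7.75%, 6.82% and 6.77%). Of the 22 calls with all libraries, those of *Ntn4*, *Epha4*, *Robo2*, *Efnb1*, *Plxna1*, *Dcc* and *Nrp2* held without each replicate in turn and the other 15 were lost without at least 1. The fold changes of lost calls kept their sign, such as -1.83 to -1.66 for *Plxnb3* (-1.83 with all libraries), 2.34 to 2.65 for *Epha2* (2.63) and 1.47 to 1.48 for *Efna3* (1.47). In every library the H3.1K27M groups also had lower summed astrocyte, neuron and microglia markers and higher oligodendrocyte lineage, pericyte and fibroblast markers than their counterparts, as given above, and the part of these was not tested.

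The 19 calls with H3.1K27M in ACVR1 WT cells that passed without WT replicate 1, but not with all libraries, were 9 higher and 10 lower. The higher ones, with their log2 fold changes in that fit, were *Efna4* (0.69), *Sema4b* (0.40), *Plxna2* (0.63), *Plxnb2* (0.75), *Nrp1* (0.24), *Ntn1* (0.61), *Unc5d* (1.14), *Slit2* (1.23) and *Robo1* (0.29). The lower ones were *Efnb3* (-0.46), *Epha5* (-0.61), *Ephb1* (-1.17), *Sema3d* (-0.55), *Sema4a* (-1.48), *Sema5a* (-0.51), *Sema6b* (-0.38), *Sema6d* (-0.61), *Plxnb1* (-0.46) and *Unc5c* (-1.07). Of these, *Efnb3*, *Epha5*, *Sema4b*, *Sema6b* and *Sema6d* were called in the opposite direction with H3.1K27M in R206H cells.

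**Figure D2:**
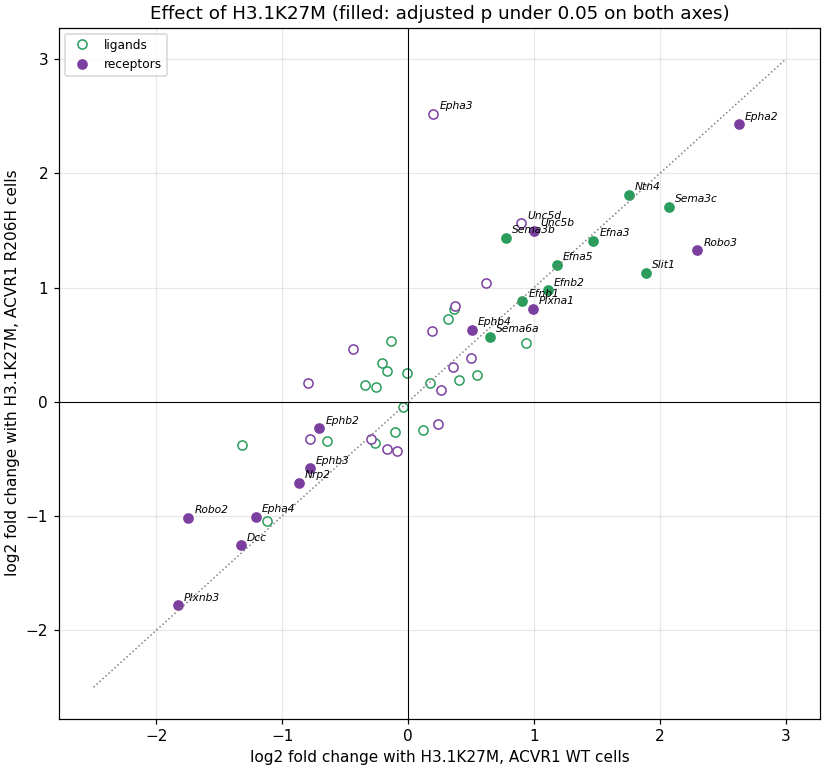
Log2 fold change with H3.1K27M in ACVR1 WT cells (x axis) against that in ACVR1 R206H cells (y axis) for 55 guidance genes, ligands in green and receptors in purple, with *Slit3* left out because it was not tested on the x axis. Filled points passed an adjusted p of 0.05 on both axes (14 in the upper right, 7 in the lower left), and the dotted line marks equal change.

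Of the 8 ephrins, 4 rose and 1 fell with H3.1K27M in ACVR1 WT cells (62.5%, against 23% of all genes), or 5 and 2 without WT replicate 1 (87.5%, against 52.6%). In R206H cells 6 rose and none fell with H3.1K27M (75%, against 56.5%), and 5 rose and none fell with R206H in the presence of H3.1K27M (62.5%, against 20.3%). *Efna5* was at 14.4, 8.403 and 7.53 CPM in the WT libraries, 15.2, 13.9 and 12.4 in R206H, 21.97, 25.1 and 21.2 in WT/H3.1K27M and 28.5, 32.1 and 33.7 in R206H/H3.1K27M. This A-type ephrin was lowest in WT replicates 2 and 3 and highest in every R206H/H3.1K27M library, and the H3.1K27M groups did not overlap with their counterparts. *Efna5* rose with H3.1K27M by a log2 fold change of 1.18, SE 0.25, adjusted p = 0.021 with ACVR1 WT (1.52 without WT replicate 1) and 1.2, SE 0.09, adjusted p = 3.6e-07 with R206H, and with R206H given H3.1K27M by 0.48, SE 0.08, adjusted p = 0.00093. *Efna3* was at 5.17, 2.49 and 3.37 CPM in the WT libraries, 5.601, 5.33 and 5.18 in R206H, 10.1, 10.2 and 10.1 in WT/H3.1K27M and 14.3, 13.4 and 14.8 in R206H/H3.1K27M. Its 4 groups formed steps without overlap, WT lowest and R206H/H3.1K27M highest. *Efna3* rose with H3.1K27M by 1.47, SE 0.26, adjusted p = 0.012 with ACVR1 WT (1.79 without WT replicate 1) and 1.41, SE 0.09, adjusted p = 1.5e-07 with R206H, and with R206H given H3.1K27M by 0.49, SE 0.08, adjusted p = 0.00068. Antisense *Gm15998* shares 14.1% of the exon length of *Efna3*, and the unstranded counting left out reads over the shared stretch.

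*Efnb1* was at 14.7, 13.3 and 10.9 CPM in the WT libraries, 16.9, 18.4 and 16.4 in R206H, 25.1, 22.7 and 24.6 in WT/H3.1K27M and 32.6, 31.2 and 30.4 in R206H/H3.1K27M. This B-type ephrin showed the same steps, each group of 3 above the last. *Efnb1* rose with H3.1K27M by 0.91, SE 0.13, adjusted p = 0.0066 with ACVR1 WT (1.00 without WT replicate 1) and 0.88, SE 0.07, adjusted p = 4.1e-07 with R206H, and with R206H given H3.1K27M by 0.38, SE 0.06, adjusted p = 0.00065. *Efnb2* was at 11.99, 8.61 and 5.23 CPM in the WT libraries, 14.5, 10.96 and 11.8 in R206H, 18.2, 18.99 and 18.2 in WT/H3.1K27M and 26.01, 22.4 and 24.4 in R206H/H3.1K27M. *Efnb2*, the ligand of EphB4, overlapped between WT and R206H and nowhere else in these comparisons. Its log2 fold changes with H3.1K27M were 1.11, SE 0.28, adjusted p = 0.035 with ACVR1 WT (1.43 without WT replicate 1) and 0.98, SE 0.10, adjusted p = 5.8e-06 with R206H, and that with R206H given H3.1K27M was 0.40, SE 0.07, adjusted p = 0.0012. The call with ACVR1 WT was lost with a replicate block.

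The remaining ephrins were *Efna1*, *Efna2*, *Efna4* and *Efnb3*. *Efna1*, the main ligand of EphA2, fell with H3.1K27M in ACVR1 WT cells (-1.32, SE 0.29, adjusted p = 0.022, and -1.31 without WT replicate 1, a call lost without each WT/H3.1K27M replicate and with a replicate block, adjusted p = 0.059), and rose with R206H given H3.1K27M (1.1, SE 0.19, adjusted p = 0.0016). Its locus at chr3:89271733-89281142 lies beside those of *Efna3* (chr3:89313899-89322965) and *Efna4* (chr3:89333390-89338028) on the same strand, so the neighbours *Efna1* and *Efna3* moved in opposite directions with H3.1K27M in those cells in the fit of all 6 libraries. *Efna4* and *Efnb3* rose with H3.1K27M in R206H cells, by 0.24 (adjusted p = 0.015) and 0.27 (adjusted p = 0.037). Both calls were lost in DESeq2 (adjusted p = 0.074 and 0.075) and in at least 2 fits that left out 1 replicate. Antisense *4731419I09Rik* shares 10.5% of the exon length of *Efna4*. *Efna2*, at 8.63 to 12.6 CPM, passed in no comparison, with or without WT replicate 1.

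The Eph receptors divided. With H3.1K27M 2 rose and 3 fell of 9 in ACVR1 WT cells (55.6%, against 23% of all genes), or 2 and 5 without WT replicate 1 (77.8%, against 52.6%). In R206H cells 4 rose and 4 fell (88.9%, against 56.5%), while 5 rose and none fell with R206H given H3.1K27M (55.6%, against 20.3%). *Epha2* was at 4.504, 1.19 and 1.03 CPM in the WT libraries, 3.001, 2.999 and 3.58 in R206H, 13.7, 13.8 and 14.1 in WT/H3.1K27M and 17.8, 15.7 and 17.9 in R206H/H3.1K27M. All 6 H3.1K27M libraries were far above the other 6, and in the WT group replicate 1 lay well above the other two. *Epha2* rose with H3.1K27M by 2.63, SE 0.54, adjusted p = 0.019 with ACVR1 WT and 2.43, SE 0.11, adjusted p = 8.5e-09 with R206H. Without WT replicate 1 the first value was 3.65, and the fold was larger by more than 1.5 times. Given H3.1K27M, *Epha2* rose with R206H by 0.31, SE 0.07, adjusted p = 0.011, a call lost without R206H/H3.1K27M replicate 3 (0.274). The promoter window with 9 CpG printed above belongs to this gene (chr4:141301240-141329384).

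*Epha4* was at 77.1, 112 and 115 CPM in the WT libraries, 95.3, 93.2 and 93.7 in R206H, 40.4, 45.4 and 44.7 in WT/H3.1K27M and 45.6, 46.7 and 47.03 in R206H/H3.1K27M. EphA4, which binds both A-type and B-type ephrins, had lower values in each H3.1K27M library than in any other. *Epha4* fell, with log2 fold changes of -1.21, SE 0.16, adjusted p = 0.0052 with ACVR1 WT (-1.37 without WT replicate 1) and -1.01, SE 0.04, adjusted p = 4.8e-09 with R206H. *Ephb3* was at 64.7, 86.3 and 87.6 CPM in the WT libraries, 67.9, 77.3 and 75.7 in R206H, 47.6, 46.1 and 44.1 in WT/H3.1K27M and 47.7, 50.6 and 47.9 in R206H/H3.1K27M. The pattern of *Ephb3* was alike, with no overlap between the 6 H3.1K27M libraries and the rest. *Ephb3* fell, with log2 fold changes of -0.78, SE 0.13, adjusted p = 0.0094 with ACVR1 WT (-0.91 without WT replicate 1) and -0.58, SE 0.06, adjusted p = 3.8e-06 with R206H. *Ephb4* was at 22.3, 18.1 and 22.2 CPM in the WT libraries, 21.8, 20.5 and 23.5 in R206H, 31.7, 28.9 and 27.6 in WT/H3.1K27M and 35.7, 31.97 and 33.7 in R206H/H3.1K27M. EphB4, the receptor of ephrin-B2, was higher in all H3.1K27M libraries. *Ephb4* rose by 0.51, SE 0.12, adjusted p = 0.025 with ACVR1 WT (0.56 without WT replicate 1) and 0.63, SE 0.07, adjusted p = 1e-05 with R206H. With a replicate block *Ephb4* lost its call with ACVR1 WT. Its rise with R206H given H3.1K27M (0.20, SE 0.07, adjusted p = 0.044) was lost in 4 of the 6 fits that left out 1 replicate, where it ranged from 0.156 to 0.205, and in DESeq2 (adjusted p = 0.083).

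*Epha5* was at 31.1, 47.1 and 47.1 CPM in the WT libraries, 51.7, 52.1 and 43.05 in R206H, 27.8, 30.4 and 33.6 in WT/H3.1K27M and 63.8, 63.9 and 72.6 in R206H/H3.1K27M. For this neuronal A-type receptor the R206H/H3.1K27M libraries were above all others and the WT/H3.1K27M libraries were the lowest, save for an overlap with WT replicate 1. *Epha5* rose with R206H given H3.1K27M by 1.13, SE 0.07, adjusted p = 5.6e-07 and with H3.1K27M in R206H cells by 0.46, SE 0.08, adjusted p = 0.0003. *Epha3* was at 0.284, 3.37 and 4.11 CPM in the WT libraries, 0.6001, 0.724 and 0.726 in R206H, 2.58, 3.24 and 3.01 in WT/H3.1K27M and 3.94, 3.03 and 4.71 in R206H/H3.1K27M. The R206H libraries and WT replicate 1 were low and the other 8 libraries high, so the WT group itself was split. *Epha3* rose with H3.1K27M in R206H cells by 2.52, SE 0.24, adjusted p = 3.5e-06. *Ephb1* was at 10.4, 25.1 and 39.5 CPM in the WT libraries, 17.2, 20.4 and 17.4 in R206H, 14.3, 13.9 and 14.6 in WT/H3.1K27M and 21.1, 20.1 and 20.1 in R206H/H3.1K27M. WT replicate 1 was the lowest of all 12 and WT replicate 3 the highest. *Ephb1* rose with R206H given H3.1K27M by 0.52, SE 0.06, adjusted p = 0.00012.

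Of the other 2 Eph receptors, *Ephb2* fell with H3.1K27M in both backgrounds (-0.71 with ACVR1 WT, adjusted p = 0.039, -0.90 without WT replicate 1, and -0.23 with R206H, adjusted p = 0.0017) and rose with R206H given H3.1K27M (0.22, adjusted p = 0.007). The first of these *Ephb2* calls was lost with a replicate block (adjusted p = 0.076) and in all fits that left out 1 replicate other than WT replicate 1, where it ranged from -0.721 to -0.543. *Epha7* fell only in the comparison of H3.1K27M in R206H cells (-0.43, adjusted p = 0.0029). Summed per length, ephrins were at 27.6 ± 1.05 CPM per kb (SD, n = 3) in WT, 30.7 ± 0.366 in R206H, 40.0 ± 0.917 in WT/H3.1K27M and 46.6 ± 0.870 in R206H/H3.1K27M. Eph receptors summed to 42.4 ± 7.68, 39.7 ± 1.06, 30.2 ± 0.352 and 36.2 ± 0.603 CPM per kb. The sum of the listed ephrins thus passed that of the listed Eph receptors in the H3.1K27M groups and lay under it in the groups without. *Ephb6*, at 35.2 to 38.3 CPM in the H3.1K27M libraries, is not in the Eph sum, so this order is that of the listed genes only.

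**Figure D3:**
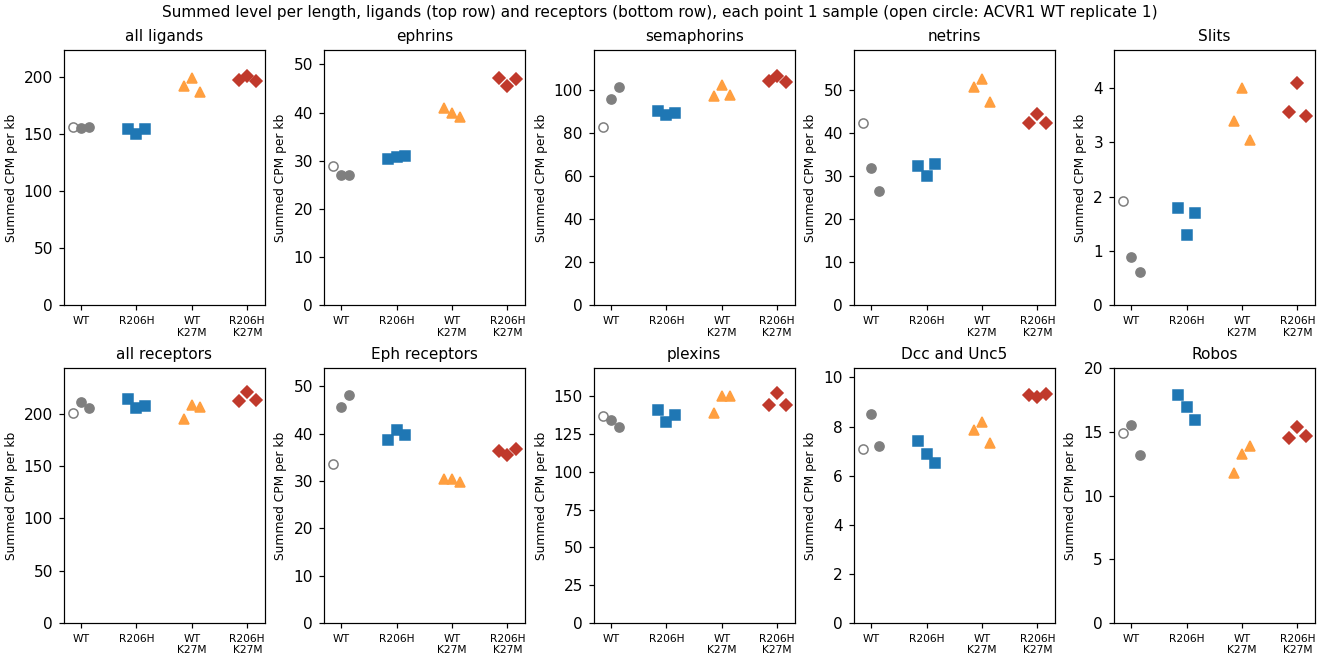
Summed CPM per kilobase of exon in each library (1 point per library, axes from 0, open circle WT replicate 1) for all ligands and for each ligand family (top row) and for all receptors and the matching receptor family (bottom row). Ephrins climb from about 27.6 in WT to 46.6 in R206H/H3.1K27M while Eph receptors are lowest in WT/H3.1K27M.

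Among the 16 semaphorins, secreted class 3 genes and membrane-bound genes of classes 4 to 7 were measured. With R206H given H3.1K27M, 6 rose and 4 fell (62.5%, against 20.3% of all genes). With H3.1K27M in ACVR1 WT cells 3 rose and none fell (18.8%, against 23%), or 4 and 5 without WT replicate 1 (56.2%, against 52.6%). In R206H cells 7 rose and 4 fell with H3.1K27M (68.8%, against 56.5%). *Sema3b* was at 1.42, 1.297 and 1.81 CPM in the WT libraries, 2.45, 2.17 and 2.08 in R206H, 2.21, 2.95 and 2.57 in WT/H3.1K27M and 6.503, 5.53 and 5.98 in R206H/H3.1K27M. It was low in every library, with the R206H/H3.1K27M libraries set above the rest. *Sema3b* rose with R206H given H3.1K27M by 1.23, SE 0.14, adjusted p = 6.1e-05, and with H3.1K27M by 1.43, SE 0.14, adjusted p = 4.7e-06 in R206H cells and 0.78, SE 0.21, adjusted p = 0.043 in ACVR1 WT cells (0.73 without WT replicate 1). The last call was lost with no filter on low counts (adjusted p = 0.065) and with a replicate block. *Sema3a* was at 25.1, 18.1 and 10.6 CPM in the WT libraries, 24.4, 22.03 and 21.6 in R206H, 15.7, 14.6 and 15.8 in WT/H3.1K27M and 27.9, 26.2 and 31.2 in R206H/H3.1K27M. *Sema3a*, the class 3 cue that uses neuropilin-1, overlapped between WT and WT/H3.1K27M and was highest in R206H/H3.1K27M. *Sema3a* rose with R206H given H3.1K27M by 0.89, SE 0.08, adjusted p = 6e-06 and with H3.1K27M in R206H cells by 0.34, SE 0.08, adjusted p = 0.0032. *Sema3c* was at 9.05, 3.27 and 3.57 CPM in the WT libraries, 6.95, 5.33 and 7.17 in R206H, 20.3, 20.6 and 25.6 in WT/H3.1K27M and 21.5, 19.9 and 21.9 in R206H/H3.1K27M. All H3.1K27M libraries exceeded the others and the 2 H3.1K27M groups overlapped. *Sema3c* rose with H3.1K27M by 2.07, SE 0.40, adjusted p = 0.016 with ACVR1 WT (2.71 without WT replicate 1, a fold larger by more than 1.5 times) and 1.71, SE 0.10, adjusted p = 7.8e-08 with R206H.

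*Sema6a* was at 211, 192 and 147 CPM in the WT libraries, 237, 219.7 and 231 in R206H, 280.4, 292 and 285 in WT/H3.1K27M and 335, 338 and 338 in R206H/H3.1K27M. SEMA6A is a transmembrane cue for plexins A2 and A4, and its values stood in steps from WT through R206H and WT/H3.1K27M to R206H/H3.1K27M with no overlap. *Sema6a* rose with H3.1K27M by 0.65, SE 0.13, adjusted p = 0.019 with ACVR1 WT (0.77 without WT replicate 1) and 0.57, SE 0.04, adjusted p = 3.4e-07 with R206H, and with R206H given H3.1K27M by 0.24, SE 0.04, adjusted p = 0.00037. *Sema4d* was at 6.4, 9.08 and 14.9 CPM in the WT libraries, 12.8, 11.3 and 10.6 in R206H, 12.97, 13.6 and 12.2 in WT/H3.1K27M and 19.99, 18.6 and 21.7 in R206H/H3.1K27M. *Sema4d*, the ligand of plexin B1, spread widely in WT and was highest in R206H/H3.1K27M. *Sema4d* rose with R206H given H3.1K27M by 0.65, SE 0.08, adjusted p = 9.3e-05 and with H3.1K27M in R206H cells by 0.81, SE 0.09, adjusted p = 1.2e-05. *Sema5a* was at 54.99, 105 and 104 CPM in the WT libraries, 56.2, 62.6 and 47.1 in R206H, 70.1, 75.04 and 73.2 in WT/H3.1K27M and 39.3, 51.4 and 37.8 in R206H/H3.1K27M. SEMA5A binds plexin B3, and its transcript was lower in the R206H/H3.1K27M libraries than in the WT/H3.1K27M libraries without overlap. *Sema5a* fell with R206H given H3.1K27M, with a log2 fold change of -0.76, SE 0.09, adjusted p = 7.9e-05, and with H3.1K27M in R206H cells, at -0.36, SE 0.12, adjusted p = 0.022. The second call was lost in DESeq2 (adjusted p = 0.086) and in 4 fits that left out 1 replicate, where it ranged from -0.346 to -0.262.

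Of the other 10 semaphorins, *Sema4a*, *Sema4b* and *Sema5b* fell with R206H given H3.1K27M, at -0.54 (adjusted p = 0.008), -0.25 (adjusted p = 0.0037) and -0.34 (adjusted p = 0.0023). *Sema6b* and *Sema6d* rose in that comparison by 0.38 (adjusted p = 0.016) and 0.16 (adjusted p = 0.035), and with H3.1K27M in R206H cells by 0.54 and 0.15. With H3.1K27M in R206H cells, *Sema4a* (-1.04), *Sema4b* (-0.25) and *Sema4c* (-0.26, with 7.27% of its exon length shared with *D430040D24Rik*) fell. The 3 class 6 semaphorins of the list therefore rose with R206H given H3.1K27M, and both class 5 genes fell. The call of *Sema6d* was lost in each of the 6 fits that left out 1 replicate (0.113 to 0.182), and that of *Sema6b* in 3 of them (0.256 to 0.36). In class 4, *Sema4d* rose, *Sema4a* and *Sema4b* fell, and *Sema4c* did not pass (-0.13, adjusted p = 0.27). The secreted *Sema3e* and *Sema3f* and the GPI-anchored *Sema7a* passed in no comparison, with or without WT replicate 1, at 0.517 to 1.61, 0.435 to 1.40 and 3.85 to 5.86 CPM. The secreted *Sema3d*, at 10.7 to 27.3 CPM, passed in none with all libraries, but without WT replicate 1 it was called lower with H3.1K27M in ACVR1 WT cells (-0.55, adjusted p = 0.0098) and passed the interaction of R206H with H3.1K27M with a positive value (0.69, adjusted p = 0.016).

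Plexins, the signalling receptors of semaphorins, gave 2 rises and 2 falls of 8 with R206H given H3.1K27M (50%, against 20.3% of all genes), 1 and 1 with H3.1K27M in ACVR1 WT cells (25%, against 23%), or 3 and 2 without WT replicate 1 (62.5%, against 52.6%), and 4 and 3 in R206H cells (87.5%, against 56.5%). *Plxnb3* was at 39.9, 92.4 and 95.01 CPM in the WT libraries, 54.7, 62.05 and 53.5 in R206H, 21.03, 21.2 and 21.1 in WT/H3.1K27M and 16, 17.6 and 15.5 in R206H/H3.1K27M. Plexin B3 had its lowest values in R206H/H3.1K27M and its next lowest in WT/H3.1K27M, with all 6 below the rest. *Plxnb3* fell with H3.1K27M, with log2 fold changes of -1.83, SE 0.32, adjusted p = 0.012 with ACVR1 WT (-2.14 without WT replicate 1) and -1.78, SE 0.07, adjusted p = 4.5e-09 with R206H, and also fell with R206H given H3.1K27M, at -0.36, SE 0.07, adjusted p = 0.0023. *Plxna1* was at 131, 95.5 and 93.2 CPM in the WT libraries, 137, 109 and 119.9 in R206H, 191, 219.8 and 220.2 in WT/H3.1K27M and 201, 225 and 211 in R206H/H3.1K27M. The class A plexin was higher in each H3.1K27M library than in any without, and the 2 H3.1K27M groups overlapped. *Plxna1* rose by 0.99, SE 0.15, adjusted p = 0.0074 with ACVR1 WT (1.17 without WT replicate 1) and 0.81, SE 0.07, adjusted p = 1.8e-06 with R206H. *Gm26811* shares 10.7% of its exon length, and the unstranded counting left out reads over that stretch.

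*Plxna4* was at 4.46, 8.92 and 11.9 CPM in the WT libraries, 10.3, 7.601 and 7.41 in R206H, 12.2, 13.3 and 12.8 in WT/H3.1K27M and 17.5, 18.7 and 15.7 in R206H/H3.1K27M. This plexin partners with neuropilin-1 for SEMA3A, and its values were highest in R206H/H3.1K27M and varied most in WT. *Plxna4* rose with R206H given H3.1K27M by 0.44, SE 0.08, adjusted p = 0.0021 and with H3.1K27M in R206H cells by 1.04, SE 0.12, adjusted p = 1.8e-05. *Plxnd1* was at 31.8, 20.02 and 32.3 CPM in the WT libraries, 32.7, 26.6 and 29.3 in R206H, 31.6, 31.4 and 32.1 in WT/H3.1K27M and 42.8, 43.4 and 48.8 in R206H/H3.1K27M. Plexin D1, the receptor of SEMA3E, was higher in R206H/H3.1K27M than in every other library. *Plxnd1* rose with R206H given H3.1K27M by 0.51, SE 0.06, adjusted p = 7e-05 and with H3.1K27M in R206H cells by 0.62, SE 0.08, adjusted p = 3.9e-05. The abundant *Plxnb1* fell with R206H given H3.1K27M (-0.21, adjusted p = 0.0059) and with H3.1K27M in R206H cells (-0.32, adjusted p = 0.0001), whereas *Plxnb2* rose in the latter (0.38, adjusted p = 5.4e-05). *Plxnc1*, the receptor of SEMA7A, fell with H3.1K27M in R206H cells (-0.41, adjusted p = 4.8e-05), and *Plxna2*, at 71.8 to 174 CPM, passed in no comparison with all libraries. *Plxna2* was called without WT replicate 1, namely with R206H in the absence of H3.1K27M (0.77, adjusted p = 0.015), with H3.1K27M in ACVR1 WT cells (0.63, adjusted p = 0.014) and in the interaction (-0.82, adjusted p = 0.0095).

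*Nrp1* was at 18.9, 23.3 and 26.7 CPM in the WT libraries, 26.4, 22.8 and 23.3 in R206H, 28.9, 30.4 and 29.02 in WT/H3.1K27M and 41.1, 43.8 and 43.9 in R206H/H3.1K27M. Neuropilin-1 was highest in R206H/H3.1K27M, next in WT/H3.1K27M, and lower without H3.1K27M. *Nrp1* rose with R206H given H3.1K27M by 0.55, SE 0.05, adjusted p = 1.5e-05 and with H3.1K27M in R206H cells by 0.84, SE 0.07, adjusted p = 7.6e-07. *Nrp2* was at 70.8, 57.6 and 52.2 CPM in the WT libraries, 77.3, 69.2 and 61.1 in R206H, 31.7, 33.9 and 32.5 in WT/H3.1K27M and 43.2, 39.5 and 43.1 in R206H/H3.1K27M. Neuropilin-2, the co-receptor of SEMA3F and SEMA3C, was lowest in WT/H3.1K27M and higher in every library without H3.1K27M. *Nrp2* fell with H3.1K27M, with log2 fold changes of -0.87, SE 0.12, adjusted p = 0.0062 with ACVR1 WT (-0.74 without WT replicate 1) and -0.71, SE 0.08, adjusted p = 1.1e-05 with R206H, and rose with R206H given H3.1K27M by 0.37, SE 0.06, adjusted p = 0.00056. The neuropilins therefore moved together with R206H given H3.1K27M and apart with H3.1K27M in R206H cells.

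**Figure D4:**
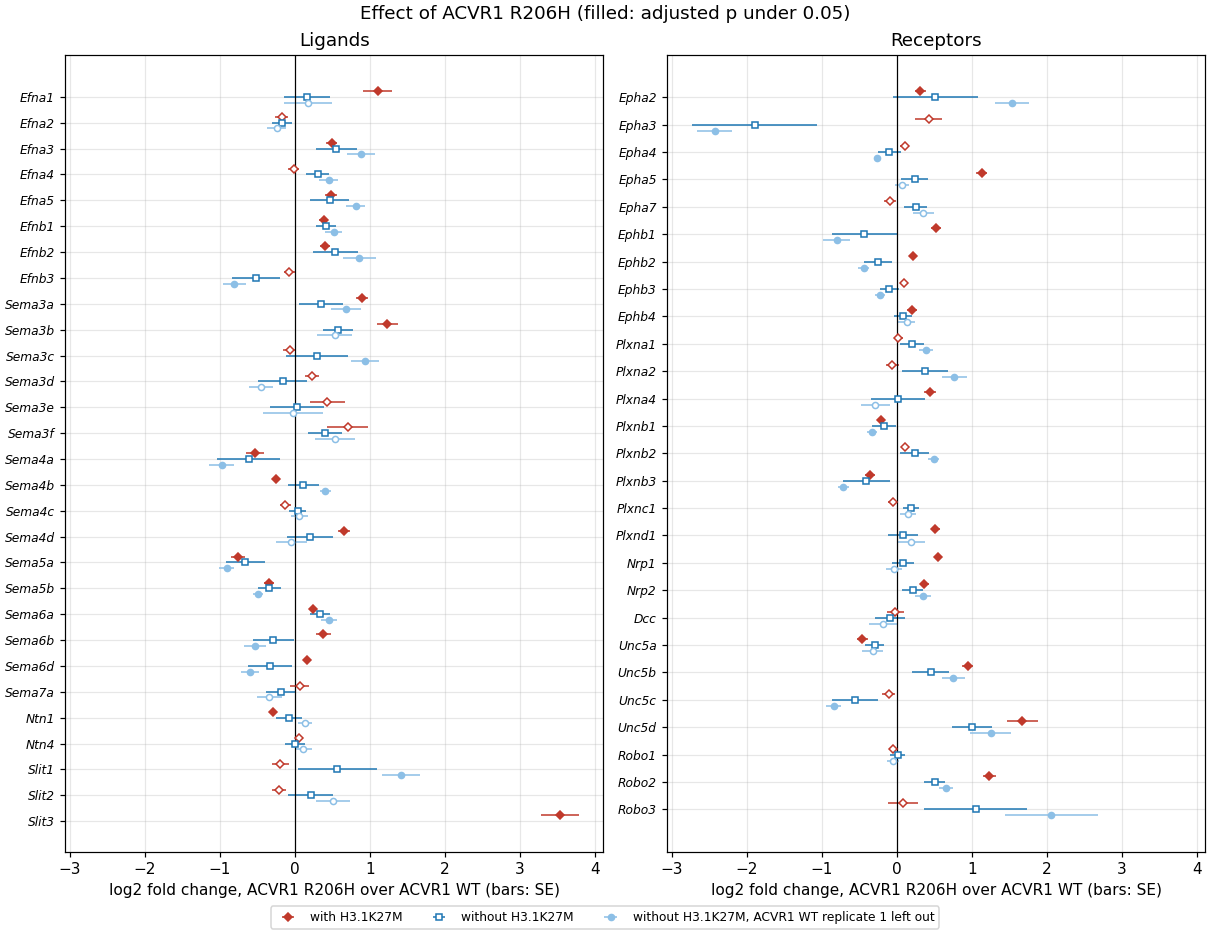
Log2 fold change of R206H over WT (x axis, bars SE) for each ligand (left) and receptor (right), with H3.1K27M (diamonds), without it (squares) and without it when WT replicate 1 is left out (circles), filled where the adjusted p was under 0.05. No square is filled, 32 diamonds and 33 circles are, and *Slit3* at 3.53 is the diamond farthest right.

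The netrins differed in abundance and direction. *Ntn4* was at 13.2, 11.1 and 10.2 CPM in the WT libraries, 10.9, 11.2 and 12.2 in R206H, 37.1, 40.2 and 37.97 in WT/H3.1K27M and 37.9, 40.01 and 41.4 in R206H/H3.1K27M. *Ntn4* (chr10:93640681-93747207), which encodes the laminin-binding netrin of basement membranes, was several-fold higher in all 6 H3.1K27M libraries, and R206H and WT overlapped in both backgrounds. *Ntn4* rose with H3.1K27M by 1.75, SE 0.12, adjusted p = 0.00097 with ACVR1 WT (1.86 without WT replicate 1) and 1.81, SE 0.07, adjusted p = 2.7e-09 with R206H, the smallest adjusted p of the 56 genes in each. *Ntn1*, the classical DCC ligand, fell with R206H given H3.1K27M (-0.29, adjusted p = 0.0011) and rose with H3.1K27M in R206H cells (0.19, adjusted p = 0.0049).

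*Dcc* was at 20.2, 30.1 and 19.9 CPM in the WT libraries, 24, 23.3 and 18.2 in R206H, 8.35, 10.1 and 9.22 in WT/H3.1K27M and 8.69, 10.3 and 8.22 in R206H/H3.1K27M. DCC is the attractive netrin receptor, and its transcript was lower in every H3.1K27M library. *Dcc* fell, with log2 fold changes of -1.33, SE 0.19, adjusted p = 0.0067 with ACVR1 WT (-1.42 without WT replicate 1) and -1.26, SE 0.12, adjusted p = 2.9e-06 with R206H. *Unc5b* was at 10.5, 5.71 and 6.65 CPM in the WT libraries, 11.7, 9.15 and 10.2 in R206H, 15.8, 16.2 and 13.5 in WT/H3.1K27M and 28.9, 27.5 and 30.3 in R206H/H3.1K27M. UNC5B, a repulsive netrin receptor, was highest in R206H/H3.1K27M, and the H3.1K27M groups lay above those without. *Unc5b* rose with H3.1K27M by 1.00, SE 0.24, adjusted p = 0.029 with ACVR1 WT (1.3 without WT replicate 1) and 1.5, SE 0.09, adjusted p = 5.2e-08 with R206H, and with R206H given H3.1K27M by 0.94, SE 0.08, adjusted p = 3.5e-06. The *Unc5b* window printed above, at 27 CpG, is the most CpG-rich of the 4. *Unc5d* was at 1.09, 0.623 and 0.782 CPM in the WT libraries, 1.7, 1.86 and 1.45 in R206H, 1.104, 1.76 and 1.78 in WT/H3.1K27M and 6.12, 4.304 and 4.37 in R206H/H3.1K27M. Although low, *Unc5d* separated R206H from WT in both backgrounds. *Unc5d* rose with R206H given H3.1K27M by 1.67, SE 0.21, adjusted p = 0.00013 and with H3.1K27M in R206H cells by 1.56, SE 0.20, adjusted p = 3e-05. In the same family *Unc5a* fell with R206H given H3.1K27M (-0.46, adjusted p = 0.0011) and *Unc5c* fell with H3.1K27M in R206H cells (-0.33, adjusted p = 0.0092).

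With all libraries in the fits, *Slit3* had the largest log2 fold change of the 56 in any pairwise comparison. *Slit3* was at 0.1896, 0.207 and 0.342 CPM in the WT libraries, 0.7501, 0.259 and 0.629 in R206H, 0.286, 0.619 and 0.317 in WT/H3.1K27M and 3.94, 4.57 and 5.27 in R206H/H3.1K27M. In counts *Slit3* (chr11:35121224-35708507) had 4, 4 and 7 reads in WT, 15, 5 and 13 in R206H, 7, 13 and 8 in WT/H3.1K27M and 83, 104 and 141 in R206H/H3.1K27M. The libraries with both vectors held several times more reads than any other, and the 2 comparisons between low groups were not tested. With R206H given H3.1K27M, *Slit3* passed the filter on mean counts only through the R206H/H3.1K27M libraries. Its large rise there was thus partly set by the filter, and its place in the interaction rests on those libraries too. *Slit3* rose with R206H given H3.1K27M by 3.53, SE 0.26, adjusted p = 1.5e-06 and with H3.1K27M in R206H cells by 3.07, SE 0.27, adjusted p = 1.6e-06. *Slit1* was at 8.201, 2.801 and 2.05 CPM in the WT libraries, 7.25, 4.76 and 7.21 in R206H, 15.8, 18.6 and 13.8 in WT/H3.1K27M and 13.9, 15.7 and 12.3 in R206H/H3.1K27M. *Slit1* was higher in all H3.1K27M libraries, and WT replicate 1 was the highest of its group. *Slit1* rose with H3.1K27M by 1.89, SE 0.50, adjusted p = 0.041 with ACVR1 WT (2.74 without WT replicate 1, a fold larger by more than 1.5 times) and 1.13, SE 0.15, adjusted p = 4.4e-05 with R206H. *Slit2* rose in the latter by 0.51 (adjusted p = 0.0019), so that all 3 Slits rose with H3.1K27M in R206H cells.

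*Robo2* was at 118, 93.99 and 83.1 CPM in the WT libraries, 154, 134 and 126 in R206H, 24.99, 29.3 and 32.7 in WT/H3.1K27M and 67.2, 62.4 and 73.3 in R206H/H3.1K27M. Robo2 (chr16:73891839-74411825) was lowest in WT/H3.1K27M and highest in R206H, and no pair of groups overlapped in these 4 comparisons. *Robo2* fell with H3.1K27M, with log2 fold changes of -1.75, SE 0.16, adjusted p = 0.0019 with ACVR1 WT (-1.6 without WT replicate 1) and -1.02, SE 0.08, adjusted p = 4.1e-07 with R206H, and rose with R206H given H3.1K27M by 1.23, SE 0.09, adjusted p = 1.2e-06. Without H3.1K27M its log2 fold change with R206H was 0.50, SE 0.14, adjusted p = 0.94, and 0.65 (adjusted p = 0.0044) without WT replicate 1. *Robo1*, the Robo with the highest mean level per length in each group, rose with H3.1K27M in R206H cells by 0.30 (adjusted p = 0.00039). *Robo3*, known from commissural neurons, rose with H3.1K27M by 2.3 with ACVR1 WT (adjusted p = 0.036, 3.3 without WT replicate 1, a fold larger by more than 1.5 times) and 1.33 with R206H (adjusted p = 0.0013), from 15, 6 and 1 reads in the WT libraries. The first of these calls was lost with a replicate block (adjusted p = 0.085), without WT replicate 2 and without each WT/H3.1K27M replicate, where it ranged from 2.196 to 2.379.

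**Figure D5:**
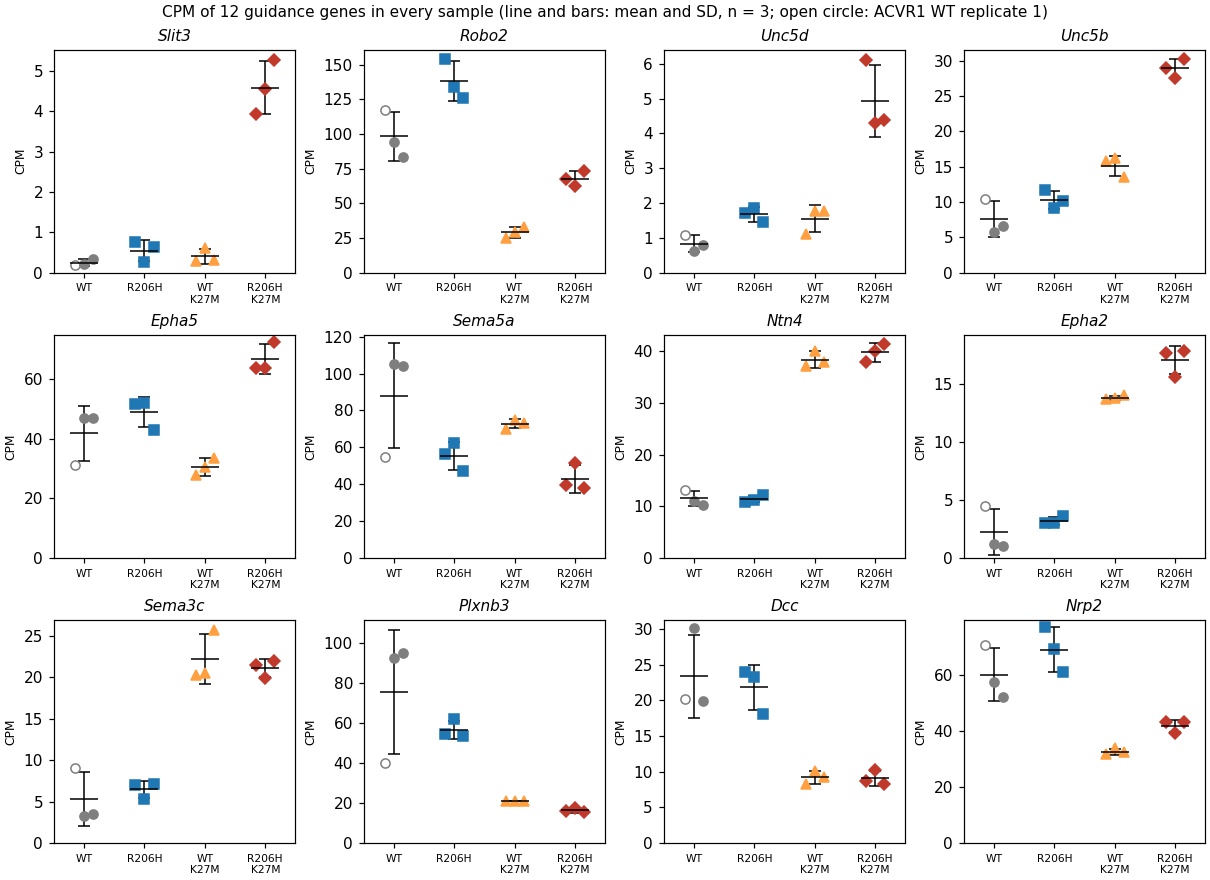
CPM of 12 guidance genes in every library (each axis starts at 0, line and bars mean and SD of 3, open circle WT replicate 1). *Slit3*, *Unc5d*, *Unc5b* and *Epha5* are highest with R206H and H3.1K27M together, *Ntn4*, *Epha2* and *Sema3c* are high in both H3.1K27M groups, and *Plxnb3*, *Dcc* and *Nrp2* are low there.

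Ligands and receptors were set side by side in each comparison. With R206H given H3.1K27M, 12 ligands rose and 5 fell of 29, and 12 receptors rose and 3 fell of 27, where 11.4% of all genes rose and 8.95% fell, with median log2 fold changes of 0.158 and 0.112 against 0.001 over all genes. With H3.1K27M in ACVR1 WT cells, 9 ligands rose and 1 fell of 28 tested, while 5 receptors rose and 7 fell of 27, against 12.6% and 10.4% of all genes. These counts were 13 and 7 for ligands and 10 and 11 for receptors without WT replicate 1, against 26.9% and 25.6%. In R206H cells 18 ligands rose and 4 fell of 29, and 13 receptors rose and 11 fell of 27, against 29.1% and 27.4% of all genes, with medians of 0.339 and 0.167 against -0.002 over all genes. The receptor median minus the ligand median was -0.046 with R206H given H3.1K27M and turned to 0.072 without R206H/H3.1K27M replicate 2, while in R206H cells with H3.1K27M it was -0.172 and stayed between -0.270 and -0.125 without each replicate in turn. No test of ligands against receptors was made, since the genes were chosen with results known.

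Summed per length, ligands were at 155.6 ± 0.208 CPM per kb in WT, 153.2 ± 2.48 in R206H, 192.6 ± 6.02 in WT/H3.1K27M and 198.2 ± 2.29 in R206H/H3.1K27M (SD, n = 3). Receptors were at 205.4 ± 5.35, 209.1 ± 4.55, 203.2 ± 7.34 and 215.2 ± 4.37 CPM per kb. These sums cover the listed genes only, so receptors such as *Neo1* and *Plxna3* are not in them. The ligand sums of the H3.1K27M libraries, 186.9 to 200.8, lay above those of all libraries without it, 150.3 to 155.8, while the receptor sums of the 4 groups ranged over 200.1 to 210.8, 205.7 to 214.3, 194.8 to 208.2 and 212.1 to 220.2. Few genes lead the ligand sum, *Sema6a* with 20.9 ± 3.72 CPM per kb in WT and 38.4 ± 0.194 in R206H/H3.1K27M, *Ntn1* and *Sema6d*.

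Whether the R206H effect differed with H3.1K27M was tested as an interaction over all 12 libraries. None of the 56 guidance genes passed, where 0.0712% of all 15445 genes did. At an unadjusted p under 0.05 there were 8, against 7.66% of all genes. These were *Slit3* (interaction 2.37, in log2), *Epha3* (2.31), *Efna1* (0.95), *Epha5* (0.90), *Robo2* (0.73), *Sema3b* (0.66), *Ephb2* (0.48) and *Nrp1* (0.47), each with a more positive R206H effect when H3.1K27M was present. DESeq2 called 1 guidance gene, *Epha5* (adjusted p = 0.017), and 0.622% of all genes.

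Without WT replicate 1, 28 of 56 passed the interaction, 17 positive and 11 negative, where 26.6% of all genes passed, 13.6% positive and 13% negative. Eph receptors made up 7 of the 28, with *Epha3* at 2.86 (adjusted p = 6.9e-05), *Ephb1* at 1.34 (adjusted p = 0.00037), *Epha5* at 1.08 (adjusted p = 0.00012) and *Epha2* at -1.21 (adjusted p = 0.00086). All 3 Slits passed, *Slit3* at 2.55, *Slit1* at -1.6 and *Slit2* at -0.71. The comparisons of R206H with and without H3.1K27M share no library, and 35 of 55 guidance genes had the same sign in both (63.6%, against 54% of all genes), or 32 of 55 (58.2%, against 48.3%) without WT replicate 1.

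The other genes of these pathways were taken from lists. Of 18 further ligands and receptors of the same families 10 were tested, and with R206H given H3.1K27M 3 rose and 2 fell, where 20.3% of all genes were called. *Dscam* fell, at -0.51 (adjusted p = 0.00082), as did *Dscaml1*, at -0.45 (adjusted p = 0.0034), both cell adhesion molecules that take part in netrin responses or neurite spacing, and *Sema6c* rose by 0.30 (adjusted p = 0.018). Of 39 guidance signal transducers 38 were tested, and 9 rose and none fell (23.7%, near the share over all genes), among them the adaptors *Grb10* (0.61, adjusted p = 0.00014) and *Nck2* (0.35, adjusted p = 0.00034) and the collapsin response mediator *Dpysl3* (0.30, adjusted p = 0.0002). Of 13 other cues, 3 rose and 1 fell (30.8%), with *L1cam* at 1.97 (adjusted p = 7e-05), *Rgma* at 0.53 (adjusted p = 2.5e-05) and *Nrcam* at 0.34 (adjusted p = 0.00011). With H3.1K27M in ACVR1 WT cells the lists gave 1 rise and 1 fall of 10, 5 and 11 of 38, and 3 and 4 of 12, where 23% of all genes were called. The counts were 1 and 7, 10 and 14, and 4 and 4 without WT replicate 1, against 52.6%. In R206H cells they gave 3 and 3, 13 and 16, and 5 and 5, against 56.5%. With R206H in the absence of H3.1K27M none was called, as was no gene at all, but without WT replicate 1 they gave 1 rise and 5 falls of 10, 3 and 10 of 38, and 2 and 2 of 12, against 23.1% of all genes.

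With all libraries in the fits, *Robo2* and *Nrp2* were receptors that fell with H3.1K27M in both backgrounds and rose with R206H given H3.1K27M, and so did *Ephb2*, whose call with ACVR1 WT was lost as given above. These 3 comparisons share the WT/H3.1K27M and R206H/H3.1K27M libraries, so their calls are not independent of each other. *Plxnb3* fell in all 3 of its called comparisons. *Efna3*, *Efna5*, *Efnb1*, *Efnb2*, *Epha2*, *Ephb4*, *Sema3b*, *Sema6a* and *Unc5b* rose in all 3 of theirs. Some of these calls did not hold under every alternative, among them those of *Ephb4* and *Epha2* with R206H given H3.1K27M as given above. Those of *Efnb2*, *Sema3b* and *Ephb4* with ACVR1 WT were lost under a replicate block. Of the calls with ACVR1 WT in this paragraph those of *Robo2*, *Nrp2* and *Efnb1* held without each replicate in turn. In the single fit of all 12 libraries, only *Robo2*, *Sema3b* and *Unc5b* of these genes kept their call with R206H given H3.1K27M. *Ephb2* there also lost its call with H3.1K27M in R206H cells.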

How the data were processed

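RNA-Seq was measured in 12 cultures, 3 per group, and groups and replicate numbers were taken from the labels. Paired-end reads had been mapped by the authors with STAR 2.6.0b-1 (mm10) and counted per Ensembl gene by HTSeq-count (union mode, no strand, minimum alignment quality 10), and they deposited raw counts for each sample, with no column unassigned (0). The authors' settings assigned ambiguous reads to no gene. Reads over exon sequence shared with an antisense partner were therefore left out, while exon lengths include that sequence. Counts over 19315020 to 26456257 reads per library cover counting error only. Genes were matched by Ensembl identifier to GENCODE M21 (GRCm38), which holds 54495 of the 54532 genes and gave exon lengths. Each pairwise comparison was fitted on its own 6 samples in edgeR 4.0.16 (TMM, quasi-likelihood F test, mean normalized count of at least 10, Benjamini-Hochberg adjustment, threshold 0.05), and the interaction on 12 samples. The fits were tested on simulated data. DESeq2 1.42.0, median-of-ratios size factors, other filters, a replicate block, a fit of all 12 samples and leaving out each replicate were the alternatives. R 4.3.3, limma 3.58.1, Python 3.11.15 and matplotlib 3.10.9 were used, and promoter sequences came from RefSeq (GRCm38.p6). The guidance genes and all gene lists were chosen with earlier results of these data known. A gene is given with its value in every sample where it passed and changed by 0.5 or more in log2, in either direction, in a pairwise comparison or passed the interaction. Of the 36 that did, the 30 with the smallest adjusted p in any comparison are so described. The others are given by range and count. Of each list of other pathway genes, the 3 with the smallest adjusted p with R206H given H3.1K27M are named.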

Additional observations from a re-analysis of the deposited data

How the results depend on the processing

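Counts of called guidance genes without each replicate in turn ranged from 0 to 33 for R206H without H3.1K27M, 29 to 33 for R206H with H3.1K27M, 7 to 41 for H3.1K27M with ACVR1 WT, 43 to 46 for H3.1K27M with R206H and 0 to 28 for the interaction, where 0 to 23.1%, 12.3 to 19%, 6.77 to 52.6%, 49.5 to 53.7% and 0.0194 to 26.6% of all genes were called. The 33, 41 and 28 all came without WT replicate 1. The receptor median minus the ligand median (log2) ranged from -0.111 to 0.087 (-0.054 with all samples), -0.064 to 0.072 (-0.046), -0.274 to 0.031 (-0.057), -0.270 to -0.125 (-0.172) and 0.041 to 0.169 (0.144) in the same order. With at least 10 counts in every sample, the third was -0.335. With all 12 samples in a single fit, 8 guidance genes and 440 of all genes were called for R206H with H3.1K27M (3185 in its own fit), 33 and 6335 for H3.1K27M with ACVR1 WT (3533) and 32 and 5963 for H3.1K27M with R206H (8745), and this fit shares 1 spread over groups of unequal spread. DESeq2 called 1 guidance gene and 96 genes in the interaction (edgeR 0 and 11), and 0 and 26 for R206H without H3.1K27M. Without a filter on low counts 18 genes passed the interaction. Samples with the same replicate number did not deviate together throughout (correlations of -0.14 to 0.418 over 15445 genes). These deviations were taken from means of 3 samples, so they cannot decide whether a number marks a shared litter, culture or day. The numbers are used as names of samples only. With a replicate block, 0, 33, 16, 45 and 0 guidance genes were called in the 5 comparisons, and 2023 genes for H3.1K27M with ACVR1 WT, where *Sema3b*, *Efnb2*, *Ephb4*, *Efna1*, *Ephb2* and *Robo3* lost their calls. Of the 70 calls of the 30 described genes, 17 were lost in the fit of all 12 samples, 2 in DESeq2, 1 without the filter and 3 under the block. No call changed sign under these alternatives, and the cause of each loss was not tested. Depth limits *Slit3*, *Robo3*, *Sema3e* and *Sema3f* most.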
